A study of Homo sapiens with 9 samples.

Results

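HEK293T RNA was read with oligo(dT) primers that end in anchor bases and with plain oligo(dT) primers. The genes whose share of the gene reads differed between these classes of primer are described here. The comparison uses 6 of the 9 libraries of the series, chosen by the primer in their labels. The anchored libraries are T18V, T18VN and T18VNN, and the unanchored libraries are T12, T18 and T30. HEK293T is an established line derived from human embryonic kidney that carries the SV40 large T antigen. The cells are labelled wild type, were grown in serum-containing medium, and gave total RNA for a ligation-based protocol named CLT-seq. T12, T18 and T30 carry 12, 18 and 30 T and no anchor, while T18V, T18VN and T18VNN carry 18 T followed by 1, 2 and 3 anchor bases. Each primer had 1 library with gene counts, so primers stand in for replicates (n = 3 per class). The spread between libraries is a spread between primers, and no value separates it from a spread between cultures or runs.

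Most messenger RNAs end in a tail of adenines that the cell adds after cutting the transcript at a polyadenylation site, and an oligo(dT) primer pairs with that tail to start reverse transcription. A plain run of T can settle anywhere along the tail, and it can also pair with a stretch of A inside a transcript. In a primer with an anchor, a base that is not T follows the run of T. Such a primer's last bases pair fully only where a run of A meets another base, as at the junction of tail and transcript body. An internal run of A has such a junction as well.

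The 6 primers are printed because they define the classes. Each is written 5′ to 3′ with the shared adaptor of 50 bases in lower case and the run of T in capitals. The anchor bases are named after the run, where V stands for any base but T and N for any base. The design text names the T18VN primer T12VN, although its sequence holds 18 T.
T12: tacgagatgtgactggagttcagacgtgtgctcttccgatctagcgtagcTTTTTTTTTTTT
T18: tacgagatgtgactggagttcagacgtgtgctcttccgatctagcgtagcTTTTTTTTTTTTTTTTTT
T30: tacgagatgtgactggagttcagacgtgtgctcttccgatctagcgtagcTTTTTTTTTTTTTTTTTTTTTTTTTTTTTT
T18V: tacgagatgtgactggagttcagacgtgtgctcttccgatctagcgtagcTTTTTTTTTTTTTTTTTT followed by V
T18VN: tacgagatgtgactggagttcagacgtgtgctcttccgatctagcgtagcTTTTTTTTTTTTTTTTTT followed by V and N
T18VNN: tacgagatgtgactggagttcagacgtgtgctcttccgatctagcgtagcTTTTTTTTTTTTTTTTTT followed by V, N and N

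The libraries held 2215960 to 5200859 reads on genes, and 10887 of 26625 genes had enough reads to be tested. Reads on genes were 17.3%, 20.3% and 11.7% of the library total in T12, T18 and T30. They were 37.5%, 28.1% and 27.7% in T18V, T18VN and T18VNN, so the classes did not overlap. The cause was not tested. Levels and shares below are scaled to gene reads, so they describe the composition within these fractions. Of 10 marker genes of HEK293T, 7 had at least 3 reads in every library, among them AMOT and NEFM. PEG10 had 0 reads in all 6 libraries, NEFH had reads only in T18 and T18V, and SALL4 had 0 in T12 and T18VNN. The summed level of the 10 markers was 4125 to 5008 CPM in the unanchored and 3806 to 5142 CPM in the anchored libraries. CPM are reads scaled to a common total of gene reads, with edgeR's TMM factors. Most of this sum came from AMOT (2141 to 3091 CPM) and NEFM (1002 to 1713 CPM). Of 8 markers of A549, the other cell line of the series, none reached 3 reads in all 6 libraries, and TGFBI, KRT7 and AKR1B10 were at 0 in each. ZNF557, a zinc finger gene, stood apart in T18 at 76590 CPM, against 45.85 to 74.25 CPM in the other 5 libraries.

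The quasi-likelihood test of edgeR, at a Benjamini-Hochberg adjusted p under 0.05, found 147 genes (1.35% of those tested) that differed. With anchored primers 85 rose (0.781%) and 62 fell (0.569%). These are called genes in what follows. Leaving out T18VNN, T30, T18V or T18 brought the count to 46, 54, 63 and 85 genes, and leaving out T12 or T18VN to 107 and 106. The 3 libraries of one class lay above all 3 of the other in 2441 genes (22.4%), with the anchored class on top in 1352 (12.4%) and at the bottom in 1089 (10%). Without TMM scaling that split was 1834 higher (16.8%) and 739 lower (6.79%), so the balance of the directions depends on the scaling.

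The genes that fell with anchored primers were long and rich in internal runs of A. Their median transcript length was 4320.5 bases, against 2484 bases for the genes that rose and 3227 bases for all genes tested. The medians of length bins showed no steady trend, and transcripts of like length differed by whether they held a run of A. The longest internal run of A in the annotated transcript, with its last 50 bases left out, had a median of 15 bases in the 43 lower genes with a value, of 5 bases in 77 higher genes and of 6 bases in 8989 tested genes. Runs of 12 or more were present in 26 of the lower genes (60.5%), in 3 of the higher genes (3.90%) and in 1242 genes overall (13.8%). Runs of 15 or more were present in 23 lower genes (53.5%) and in 1 higher gene, against 746 genes (8.30%) overall.

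The sites below show such runs. They were chosen after the values were seen, as the 8 lower genes with a run of 12 or more that had the highest mean CPM and overlapped no other gene, and 3 of the 4 higher genes with the highest mean CPM among those with no overlap and a run, of any length, that starts at least 8 bases into the transcript. Each line gives 30 bases of the GENCODE release 29 transcript around the start of its longest internal run, 5′ to 3′, with the run in capitals. A run longer than 22 bases continues past the end of the line.
SH3KBP1: cacttttgAAAAAAAAAAAAAttattttgc
MAP4K4: atggttctAAAAAAAAAAAAAAAAAAAAAA
MARCHF6: aaaattggAAAAAAAAAAAAAAAtcagtat
ZNF302: caagaagtAAAAAAAAAAAAAAAAAAAAAA
LPAR4: ttccctgtAAAAAAAAAAAAAAAAAAAAAA
PITX1: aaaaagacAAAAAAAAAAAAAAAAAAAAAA
SPRY1: tccccgctAAAAAAAAAAAAAAAAAgaaaa
MMAB: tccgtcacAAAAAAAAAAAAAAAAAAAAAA
JUN: caacgaagAAAAAAAAtaacacagagagac
LSM12: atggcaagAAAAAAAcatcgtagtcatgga
SALL2: agctgaagAAAAAAAgggggcgtctcccct

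The first 8 sites belong to genes that fell and the last 3 to genes that rose with anchored primers. The runs are 13 bases in SH3KBP1, 28 in MAP4K4, 15 in MARCHF6, 49 in ZNF302, 31 in LPAR4, 24 in PITX1, 17 in SPRY1 and 25 in MMAB. They are 8 bases in JUN, 7 in LSM12 and 7 in SALL2. Of the 8 runs in lower genes, those of LPAR4 and SPRY1 lie in the 5′ UTR and the others in the 3′ UTR. In GRCh38 the printed windows of SH3KBP1, MAP4K4 and ZNF302 are chrX:19534105-19534134 on the minus strand, chr2:101891980-101892009 on the plus strand and chr19:34684164-34684193 on the plus strand. The run ends 139 bases before the annotated transcript end in SH3KBP1, 2674 bases before it in MAP4K4 and 2176 bases before it in ZNF302.

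The difference between primer classes grew with the length of the run. The median log2 fold change (anchored over unanchored) was 0.04 in 6057 genes with runs under 8 bases, 0.15 in 1139 genes with runs of 8 to 9 and 0.12 in 551 genes with runs of 10 to 11. It was -0.15 in 496 genes with runs of 12 to 14, -0.39 in 444 genes with runs of 15 to 19, -0.44 in 194 genes with runs of 20 to 24 and -0.94 in 108 genes with runs of 25 or more. All genes tested had a median of 0.00. In the bin of the longest runs 14 genes fell, none rose, and 10.2% lay above 0. Among genes with runs under 8 bases 61 rose and 13 fell, and none of the 1139 genes with runs of 8 to 9 was called lower. The split of runs above 15 bases was added after the data had been seen.

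The bins were also followed in the single libraries, as the median over genes of the deviation of a library's log2 CPM from the gene's mean over all 6. For runs of 15 or more this median was -0.05 in T12, 0.39 in T18 and 0.36 in T30, and -0.15 in T18V, -0.13 in T18VN and -0.19 in T18VNN. The classes did not overlap, but T12, whose run of T is the shortest, lay closer to the anchored libraries than to T18 and T30. For runs of 20 to 24 bases T12, at -0.20, lay among the anchored libraries, which ran from -0.22 to -0.01. For runs of 25 or more the deviation was 1.05 in T30, 0.40 in T18 and 0.06 in T12, against -0.55, -0.46 and -0.34 in T18V, T18VN and T18VNN. In that bin the 3 unanchored libraries were ordered by the length of their run of T, a description of 1 library each.

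**Figure D1:**
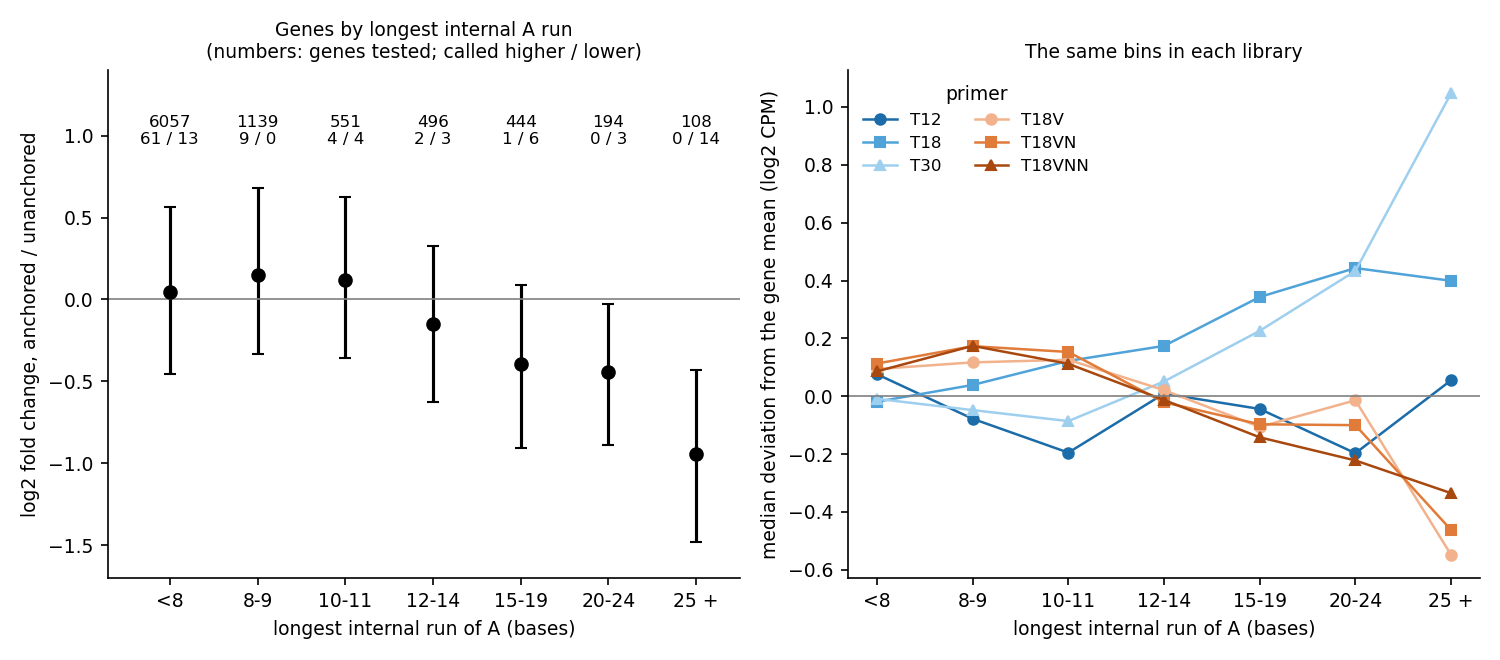
Left, log2 fold change (anchored over unanchored; points are medians, bars the quartiles) of genes binned by their longest internal run of A in bases, with the genes tested and called above each bin; right, the median deviation of each library from the gene mean (log2 CPM) in the same bins. The medians fall from 0.15 in runs of 8 to 9 bases to -0.94 in runs of 25 or more, and T30 is the library farthest above 0 in the last bin.

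The shares of reads were compared as well. Genes with a run of 12 or more took 16.9% of the gene reads in T12, 26.2% in T18 and 19.5% in T30. They took 13.7% in T18V, 13.6% in T18VN and 13.4% in T18VNN. The means were 20.9% ± 4.78 (SD, n = 3) without and 13.6% ± 0.123 (SD, n = 3) with an anchor, a difference of -7.28 percentage points. The classes did not overlap, and p was 0.1 by a two-sided exact permutation test, which 3 libraries against 3 cannot go below (0.4 after Benjamini-Hochberg adjustment over 12 measures). ZNF557 holds a run of 15 A. With the top gene of each library left out the difference was -5.09 points, and without T18 it was -4.63 points.

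The pattern was present within strata of the transcripts. In genes of 4000 to 8000 bases, the median log2 fold change was 0.12 for 2230 genes with runs under 12 and -0.34 for 614 genes with runs of 12 or more. In genes of 1000 to 2000 bases it was 0.03 for 1477 genes and -0.51 for 55 genes. In genes with GC under 45%, the median was 0.21 for 2478 genes with runs under 12 and -0.44 for 391 genes with runs of 15 or more, and in genes with GC of 55% or more it was -0.09 for 2717 genes and -0.63 for 79 genes. It was -0.50 in 542 genes with runs of 15 or more that overlap no other gene. At a mean of 100 CPM or more it was -0.52 in 169 genes with such runs, of which 11 fell and 1 rose.

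Runs of T, the complement of a run of A, were counted as a comparison. With a longest run of T of 15 to 19 bases, the median log2 fold change of 563 genes was 0.07, and 9 of them rose and 2 fell. For runs of T of 25 or more it was -0.25 in 118 genes, of which 2 rose and 6 fell, and -0.05 in the 79 of these whose run of A was under 12, of which 2 rose and 3 fell. A window of 18 bases made only of A, the length of T in 4 of the primers, was present in 421 genes with a median of -0.52, of which 17 fell and none rose. With 17 A in 18 bases the median was -0.36 in 301 genes, and with 14 A in 18 bases it was 0.21 in 1175 genes. The median was -0.29 in 1013 genes with 1 run of 12 or more A, -0.61 in 165 genes with 2 such runs and -0.57 in 64 genes with 3 or more.

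Runs were also sorted by their place in the transcript. Runs of 15 or more lay in the 3′ UTR in 681 genes, with a median log2 fold change of -0.48, and in the 5′ UTR in 24 genes, with a median of -0.38. By distance to the annotated end, the medians were -0.45 in 143 genes with a run under 500 bases away, -0.33 in 131 genes at 500 to 1000 bases, -0.46 in 183 genes at 1000 to 2000, -0.59 in 205 genes at 2000 to 4000 and -0.48 in 84 genes at 4000 or more. A run value was missing for 19 of the 62 lower genes, because no reference transcript was within 10% of the deposited length. Pairing transcripts by RefSeq accession, an alternative added after seeing the data, gave 57 lower genes a value, of which 22 (38.6%) had runs of 15 or more, against 842 (8.17%) of 10304 tested genes. The median run of the lower genes was then 7 bases. Leaving out T18VNN, T18V or T30 lowered the 23 called genes with runs of 15 or more to 9, 10 and 11.

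Transcript length without regard to A runs left medians near 0. The median log2 fold change was 0.19 in 164 genes under 500 bases, 0.07 in 482 genes of 500 to 1000, 0.00 in 1938 genes of 1000 to 2000 and 0.00 in 4242 genes of 2000 to 4000. It was 0.00 in 3336 genes of 4000 to 8000 bases, -0.08 in 682 genes of 8000 to 15000 and 0.12 in 43 genes of 15000 bases or more. Called genes were distributed less evenly: 19 rose and 4 fell among transcripts of 1000 to 2000 bases, 22 rose and 26 fell at 4000 to 8000, and none rose and 8 fell among the 725 genes of 8000 bases or more. Of these 725 genes, those with runs under 12 bases had medians of 0.11 and 0.26 in the bins of 8000 to 15000 and of 15000 or more, and those with runs of 12 or more had medians of -0.39 and -0.27.

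**Figure D2:**
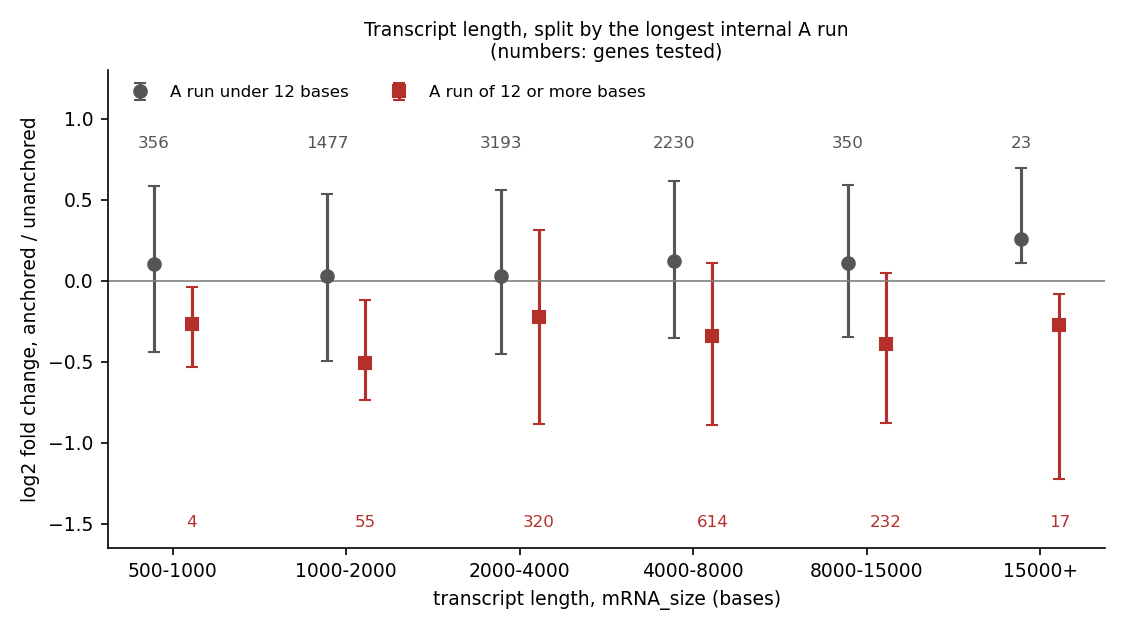
Log2 fold change (anchored over unanchored; points are medians, bars the quartiles) by transcript length in bases, split by the longest internal run of A, with the genes tested above or below each bin. In all 6 length bins shown, genes with a run of 12 or more have a median below 0 and genes with shorter runs a median above 0.

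By library, transcripts of 4000 bases or more took 29.3% of gene reads in T12, 37.8% in T18 and 32.4% in T30, and 29.8%, 29.4% and 29.7% in T18V, T18VN and T18VNN. The classes overlapped (difference -3.55 points, exact permutation p = 0.4, adjusted 0.686 over 12 measures). Transcripts under 1000 bases took 9.67% ± 1.31 without and 10.0% ± 0.728 with an anchor (SD, n = 3 each), an overlap as well. The length of the transcript carrying the median gene read was 2981 ± 220 bases and 2801 ± 35.02 bases (SD, n = 3 each), with exact permutation p = 0.3.

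Among gene classes, 10174 protein-coding genes set the background, with 80 higher, 57 lower and a median of 0.00. The 447 long noncoding genes had a median log2 fold change of -0.18, with 2 called higher and 4 lower. They took 2.06%, 2.04% and 2.41% of gene reads in T12, T18 and T30 and 1.77%, 1.85% and 1.94% in T18V, T18VN and T18VNN, and the classes did not overlap (difference -0.317 points, exact permutation p = 0.1, the smallest possible, adjusted 0.4). The 155 pseudogenes had a median of -0.05 and 20 ribosomal RNA entries a median of 0.02. KRT8P41, a keratin 8 pseudogene, was the 1 pseudogene called, at 15.7, 905 and 232 CPM in T18V, T18VN and T18VNN against 10.1, 8.59 and 0.998 CPM in T12, T18 and T30. Its call was lost in 5 leave-one-out fits, and similar keratin copies may share its reads.

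Small noncoding genes spread most widely. The 91 tested had a median log2 fold change of 0.65 and quartiles of -0.35 and 2.31, with 2 higher and 1 lower. The anchored libraries did not act as 1 group here: the median deviation was -0.46 in T18V, 0.49 in T18VN and 1.26 in T18VNN, and leaving out T18VNN brought the median from 0.65 to 0.17. In 26 small nuclear RNA entries, the spliceosome's RNA parts, many of them near-identical copies, the deviation was -1.09 in T12, 0.74 in T18 and -3.28 in T30, and 0.43 in T18V, 0.47 in T18VN and 4.94 in T18VNN, so that T18 lay above T18V and T18VN and the classes overlapped. SNORD3B-1 and SNORD3B-2, near-identical copies of the U3 small nucleolar RNA that acts in ribosomal RNA processing, had 3.41 and 4.77 CPM in T18V and 319 and 304 CPM in T18VNN. Their levels in T12, T18 and T30 were 2.00 to 5.52 CPM, so T18V lay within the unanchored range in both, and both calls were lost in 6 of the alternatives. SNORD118, the U8 small nucleolar RNA, fell from 42.1, 23.5 and 27.5 CPM in T12, T18 and T30 to 2.04, 2.94 and 6.04 CPM in T18V, T18VN and T18VNN (log2 fold change -3.06, edgeR adjusted p = 0.0264, 0.0959 at most over the alternatives), and it overlaps another gene.

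Gene families were compared by 51 lists. Calls were scattered over families: 29 lists held no called gene, 12 held 1 and 10 held more, and the median log2 fold change lay within 0.3 of 0 in 43 lists. Over all genes tested 0.781% were called higher and 0.569% lower. The libraries did not overlap in 12.4% of all genes tested on the higher side and in 10% on the lower side. Of the 55 called genes that the naming rule picks, leaving out T18VNN ended the call of 27, T30 of 25, T18V of 23, T12 of 21, T18 of 21 and T18VN of 11. The highest adjusted p over the alternatives is given below as the upper value beside a gene whose call was lost. Among the lists with 10 or more genes tested, the highest median was that of the COPI, COPII and SEC61 genes of the early secretory pathway, at 0.45 in 26 genes, with 6 genes whose libraries did not overlap on the higher side and 1 on the lower side, but none called. The list's median relative to all genes was 0.37 to 0.52 over 13 alternatives. The 21 cholesterol synthesis genes had a median of 0.36, again with none called, and without T18V it was 0.14. Among 33 hnRNP and SR proteins, which bind pre-mRNA and steer its splicing, the median was 0.32, with 11 genes non-overlapping and higher against 1 lower. SRSF1, a splicing activator, rose, at 84.1, 84.3 and 57.4 CPM in T12, T18 and T30 and 170, 342 and 277 CPM in T18V, T18VN and T18VNN (log2 fold change 1.80, edgeR adjusted p = 0.0350, upper value 0.129).

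RAB small GTPases, which mark and steer transport vesicles, held the most called members of any functional family, 4 of 45 (8.89%), all higher. RAB1B, which acts between the endoplasmic reticulum and the Golgi, had 105, 67.3 and 32.5 CPM in T12, T18 and T30 and 432, 277 and 345 CPM in T18V, T18VN and T18VNN. RAB5C of early endosomes had 35.4, 36.4 and 44.4 CPM and 340, 89.5 and 281 CPM in the same order. RAB15 and RAB3D had log2 fold changes of 2.63 and 1.82. The edgeR adjusted p of the 4 genes was 0.0177 to 0.0234, with upper values of 0.0878 for RAB15, 0.0910 for RAB1B, 0.0958 for RAB3D and 0.0883 for RAB5C. The list as a whole had a median of 0.17. It held 13 members non-overlapping and higher and 5 lower, against 12.4% and 10% of all genes tested. Its 6 members with an A run of 12 or more had a median of -0.41 against 0.40 in 33 others. Lists did not all split this way. In several lists, among them the ubiquitin-conjugating enzymes, heat shock proteins and LINC genes, the members with such runs had the higher median. The HOX and Mediator lists were also among these, with 2 such members each.

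Actin and clathrin genes were the other families of traffic and cytoskeleton with called members. ACTG1, the cytoplasmic gamma-actin, had 1365, 1946 and 1590 CPM in T12, T18 and T30 and 4473, 4729 and 5634 CPM in T18V, T18VN and T18VNN (log2 fold change 1.60, SE 0.26, edgeR adjusted p = 0.0154, upper value 0.0759). Every anchored library was above every unanchored one. ARPC3, a subunit of the actin-nucleating Arp2/3 complex, was the other called member of 25, with 34.0 ± 11.3 and 140 ± 30.9 CPM (SD, n = 3 each) and an upper edgeR adjusted p of 0.0988. In the clathrin list of 19 genes CLTCL1 and AP1B1 rose, and AP1B1, a subunit of the AP-1 adaptor, reached 1183 and 1098 CPM in T18V and T18VNN but 239 CPM in T18VN, against 165 to 173 CPM without an anchor. AP1B1 lost its call with another scaling of the libraries (RLE) and when any library but T18VN was left out, with an upper adjusted p of 0.179.

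Translation genes had medians near 0. The 85 cytosolic ribosomal protein genes had a median log2 fold change of -0.03. Their libraries did not overlap in 14 genes on the higher side and 15 on the lower side. Over all genes tested the shares were 12.4% and 10%, and the list exceeded both. Of the 85 genes 3 were called (3.53%), all higher, against 0.781% of all genes tested. FAU, which encodes ribosomal protein S30 fused to a ubiquitin-like protein, had 111, 76.5 and 51.9 CPM in T12, T18 and T30 and 356, 500 and 411 CPM in T18V, T18VN and T18VNN. RPL6 of the large subunit had 425, 449 and 257 CPM against 1596, 1547 and 2263 CPM in the same order. The family took 5.79% ± 0.877 of gene reads without and 6.08% ± 0.411 with an anchor (SD, n = 3 each, exact permutation p = 0.8). Only 3 of 73 ribosomal protein genes with a value (4.11%) held a run of 12 or more A. Of 64 translation factors EIF3D, a subunit of the initiation factor that binds the small ribosomal subunit, was called, with 281.7, 215 and 223 CPM in T18V, T18VN and T18VNN against 101, 51.8 and 46.4 CPM (upper adjusted p = 0.123, edgeR).

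In the list of polyadenylation, poly(A)-binding and deadenylation factors, PABPC1, the cytoplasmic poly(A)-binding protein, was the 1 called gene of 38, at 460 ± 17.2 and 1279 ± 332 CPM (SD, n = 3 each). Its log2 fold change was 1.48 (edgeR adjusted p = 0.0350), it overlaps another gene and its call was lost in 5 leave-one-out fits (upper adjusted p = 0.153, edgeR). Mitochondrial genes were near the background, with none called among 36 complex I subunits (median 0.16) and 73 mitochondrial ribosomal proteins (median -0.06). ATP5F1B, the catalytic beta subunit of ATP synthase, was the 1 called member among 36 subunits of complexes III, IV and V (log2 fold change 1.41, edgeR adjusted p = 0.0418, upper value 0.174). ALDOA, the glycolytic aldolase, was the 1 called of 17 glycolysis genes (log2 fold change 1.57, edgeR adjusted p = 0.0386, upper value 0.159). No proteasome subunit (34 tested), kinesin (26), tubulin (18) or Mediator subunit (29) was called.

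The 265 ZNF zinc finger genes had a median of -0.10, and 2 (0.755%) fell and none rose. Their libraries did not overlap in 19 genes on the higher side and 25 on the lower side. Over all genes tested the shares were 12.4% and 10%, and the list exceeded neither. ZNF302 had 602, 430 and 1130 CPM in T12, T18 and T30 and 22.8, 55.7 and 21.5 CPM in T18V, T18VN and T18VNN. ZNF268 had 111, 88.8 and 316.5 CPM against 12.6, 7.99 and 9.19 CPM in the same order. The classes did not overlap in either gene. Runs of 12 or more A were present in 43 of 211 ZNF genes with a value (20.4%), whose median was -0.73, against -0.05 in the other 168. The list's median relative to all genes changed sign to 0.015 without T12. ZBTB20, a BTB zinc finger repressor, was the 1 called gene of its list of 26.

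Potassium channels were called in both directions, 1 higher (5.26%) and 2 lower (10.5%) of 19 tested. KCNJ3, a G protein-gated inward rectifier with a run of 41 A, had 32.3, 27.8 and 96.8 CPM in T12, T18 and T30 and 3.07, 0.841 and 0.525 CPM in T18V, T18VN and T18VNN. KCNH2, which carries the rapid delayed rectifier current of the heart, fell with a log2 fold change of -3.62. Its call was lost without T18VNN, and the longest transcript entry in place of the one with most reads gave 1.78. The highest edgeR adjusted p of KCNH2 over the alternatives was 0.504. KCNJ4, another inward rectifier, rose from 12.3, 4.50 and 2.50 CPM to 59.6, 41.6 and 57.0 CPM (upper adjusted p = 0.104, edgeR). The 5 channel genes with runs of 12 or more A had a median of -0.54, and the 12 others with a value 0.49. LPAR4, a lysophosphatidic acid receptor, was the 1 called member of 24 receptors in its list, at 249.8, 182.7 and 1757 CPM in T12, T18 and T30 and 3.41, 4.83 and 1.05 CPM in T18V, T18VN and T18VNN.

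Among noncoding families, uncharacterised LOC genes had the lowest median of the lists with 10 or more genes, -0.51 in 52 genes. Of these 8 were non-overlapping and lower and none higher, against 10% and 12.4% of all genes tested. Without a filter on low counts that median was -0.09 relative to all genes. The 167 antisense RNAs had a median of -0.18, with EHBP1-AS1 lower and ASB16-AS1 (upper adjusted p = 0.102, edgeR) and FAM222A-AS1 higher. All 3 overlap the span of another gene, and whether they share reads with that gene was not tested. FAM222A-AS1 rests on few reads without an anchor, 1 in T12, 3 in T18 and 1 in T30, against 62, 32 and 41 in T18V, T18VN and T18VNN, and it lost its call in 5 leave-one-out fits (upper adjusted p = 0.173, edgeR). Of 62 LINC genes LINC03031 was called, lower, a call lost without T18V and without T18VNN (upper adjusted p = 0.0693, edgeR), and of 20 small nucleolar RNA host genes none was. Among the 31 cadherins and protocadherins, the protocadherins that share a last exon in clusters gave near-identical values. The list's median of -0.02, equal to both its quartiles, thus stands for few independent genes.

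Other families held calls in single members. Of 178 solute carriers, SLC23A2, a vitamin C transporter, and SLC39A1, a zinc transporter, rose with log2 fold changes of 1.81 and 2.09, and the list's median was -0.04. DHX8, a helicase that releases spliced messenger RNA, fell at 688, 659 and 650 CPM in T12, T18 and T30 and 149, 313.5 and 168 CPM in T18V, T18VN and T18VNN, the 1 called gene of 45 DEAD and DEAH box helicases. UBE2D4, a ubiquitin-conjugating enzyme, had 401, 351 and 86.9 CPM against 4.09, 23.3 and 4.72 CPM in the same order. POLA1, the catalytic subunit of DNA polymerase alpha, was the 1 called of 45 replication and nucleotide synthesis genes (log2 fold change 1.48). The calls of these 5 genes were lost in 2 to 6 leave-one-out fits, with upper edgeR adjusted p of 0.148 for SLC23A2, 0.110 for SLC39A1, 0.159 for DHX8, 0.0738 for UBE2D4 and 0.141 for POLA1, and SLC39A1, UBE2D4 and POLA1 overlap another gene. The 30 HOX genes, which pattern the body axis, had a median of -0.22 with none called, and that median ran from -0.52 to -0.11 relative to all genes over 13 alternatives.

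**Figure D3:**
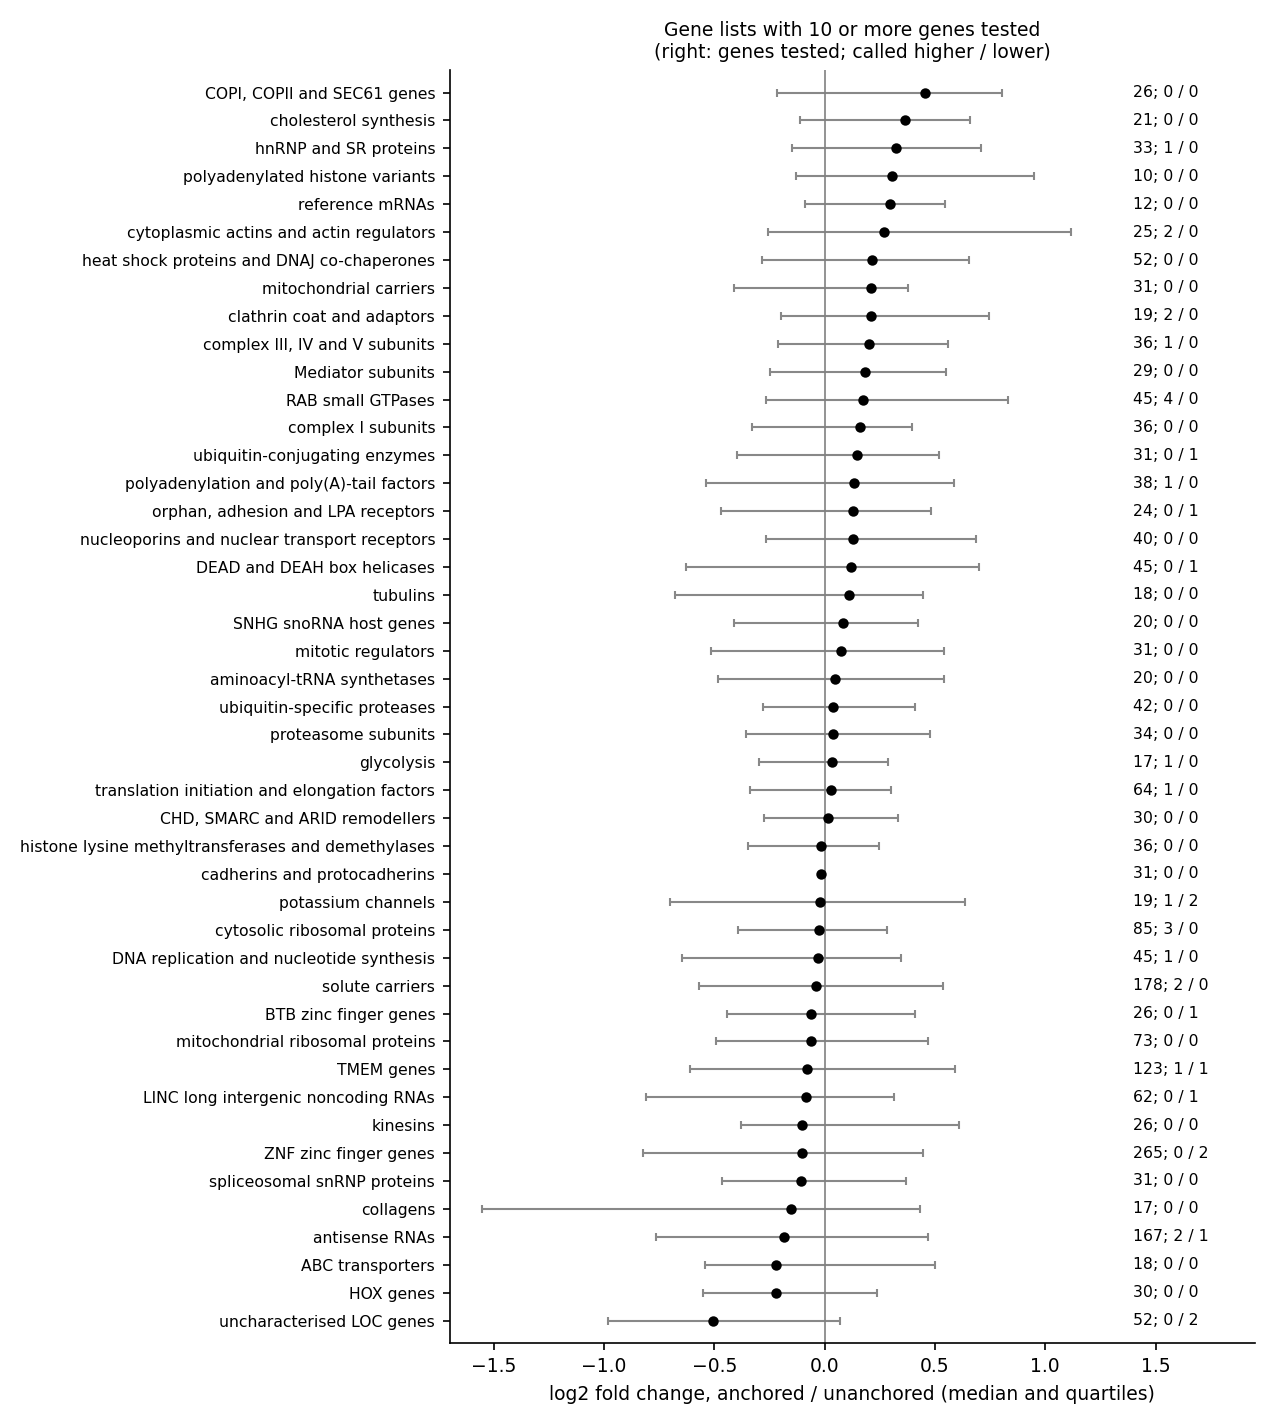
Log2 fold change (anchored over unanchored; points are medians, bars the quartiles) of each gene list with 10 or more genes tested, with the genes tested and called at the right. Of the lists plotted, the early secretory genes are highest at 0.45 and the uncharacterised LOC genes lowest at -0.51.

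The genes with the smallest adjusted p in each direction show what the single differences look like. The 9 lower genes described here each had their highest level in T30 and at least 120.5 CPM in every unanchored library. ADAT1, a deaminase that edits a transfer RNA (chr16:75630777-75657221, minus strand, hg19), had 1154, 892 and 1435 CPM in T12, T18 and T30 and 58.2, 33.0 and 55.9 CPM in T18V, T18VN and T18VNN. Its log2 fold change was -4.57 (SE 0.37, edgeR adjusted p = 5.7e-04). ARSA, the lysosomal arylsulfatase A (chr22:51061182-51066601, minus strand), had 1439, 976 and 2621 CPM against 38.2, 63.9 and 27.6 CPM in the same order. Neither has a run of more than 5 A in its paired RefSeq transcript, so a long run of A in the annotated transcript is not shared by all lower genes.

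SH3KBP1, an adaptor protein of receptor endocytosis (chrX:19552083-19905744, minus strand, hg19), was the most highly read of this group, at 4034, 3374 and 8391 CPM in T12, T18 and T30 and 333, 412 and 194.5 CPM in T18V, T18VN and T18VNN. Its log2 fold change was -4.07 (SE 0.44, edgeR adjusted p = 0.00168). ZBTB20 (chr3:114033347-114790261, minus strand), with a run of 25 A, had 630, 432 and 2228 CPM against 5.45, 15.8 and 10.5 CPM, and it overlaps another gene. LOC101927284, a long noncoding RNA, had 323, 222 and 1566 CPM against 2.38, 3.15 and 0.787 CPM, which rest on 7, 15 and 3 reads. RORA, a nuclear receptor of circadian and developmental control, had 2334, 1379 and 6263 CPM against 18.7, 58.2 and 29.9 CPM, but with the longest transcript entry its log2 fold change turned from -6.54 to 1.42. TAAR5, a trace amine receptor, and ATPSCKMT, a lysine methyltransferase of ATP synthase, completed the group with log2 fold changes of -4.50 and -3.59.

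Of short transcripts, FTL, the light chain of the iron store ferritin, was the lower gene with the smallest adjusted p between 500 and 1000 bases. It had 4356, 3659 and 6477 CPM in T12, T18 and T30 and 1322, 876 and 760 CPM in T18V, T18VN and T18VNN (log2 fold change -2.29, edgeR adjusted p = 0.00763), and its longest run is 5 A. MAP4K4, a kinase of stress signalling, and MARCHF6, a ubiquitin ligase of the endoplasmic reticulum, had smaller folds at high levels. MAP4K4 had 2271, 2230 and 3830 CPM against 1004, 1106 and 1063 CPM, and MARCHF6 had 1033, 863 and 1984 CPM against 263, 171.5 and 158 CPM. In both genes the classes did not overlap.

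The 10 higher genes with the smallest adjusted p, RPL6 among them, had at most 449 CPM in any unanchored library and differed in which anchored library was highest. PGRMC2, a haem-binding membrane protein related to the progesterone receptor components (chr4:129190392-129209984, minus strand, hg19), had 31.6, 31.3 and 14.5 CPM in T12, T18 and T30 and 916, 321.5 and 469.5 CPM in T18V, T18VN and T18VNN. CLTCL1, the second clathrin heavy chain (chr22:19166986-19279239, minus strand), had 2.85, 1.64 and 5.99 CPM against 54.2, 62.0 and 64.3 CPM, on 8 to 12 reads without an anchor. NECTIN1, a cell adhesion molecule, had 11.4, 8.39 and 6.99 CPM against 101, 109 and 64.8 CPM. RFX1, a transcription factor, had 47.1, 40.1 and 58.9 CPM against 430, 234 and 340 CPM, although its 5′ UTR holds a run of 14 A.

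SAMD1, a chromatin protein of unmethylated CpG islands, had 77.1 ± 12.8 CPM without and 433 ± 106 CPM with an anchor (SD, n = 3 each). TMEM9, a lysosomal membrane protein, had 42.6 ± 14.4 and 269 ± 59.98 CPM, and RNH1, the cytosolic ribonuclease inhibitor, had 32.0 ± 8.23 and 208 ± 85.4 CPM. ILRUN, a regulator of antiviral signalling, and LSMEM2, a small membrane protein, had log2 fold changes of 2.57 and 2.55, and both overlap another gene. LSMEM2 lies with IFRD2, which was also called, and the 2 genes may share reads. Of the 3 higher genes with a run of 12 or more A, PUS3 and TNPO2 overlap another gene and RFX1 does not.

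**Figure D4:**
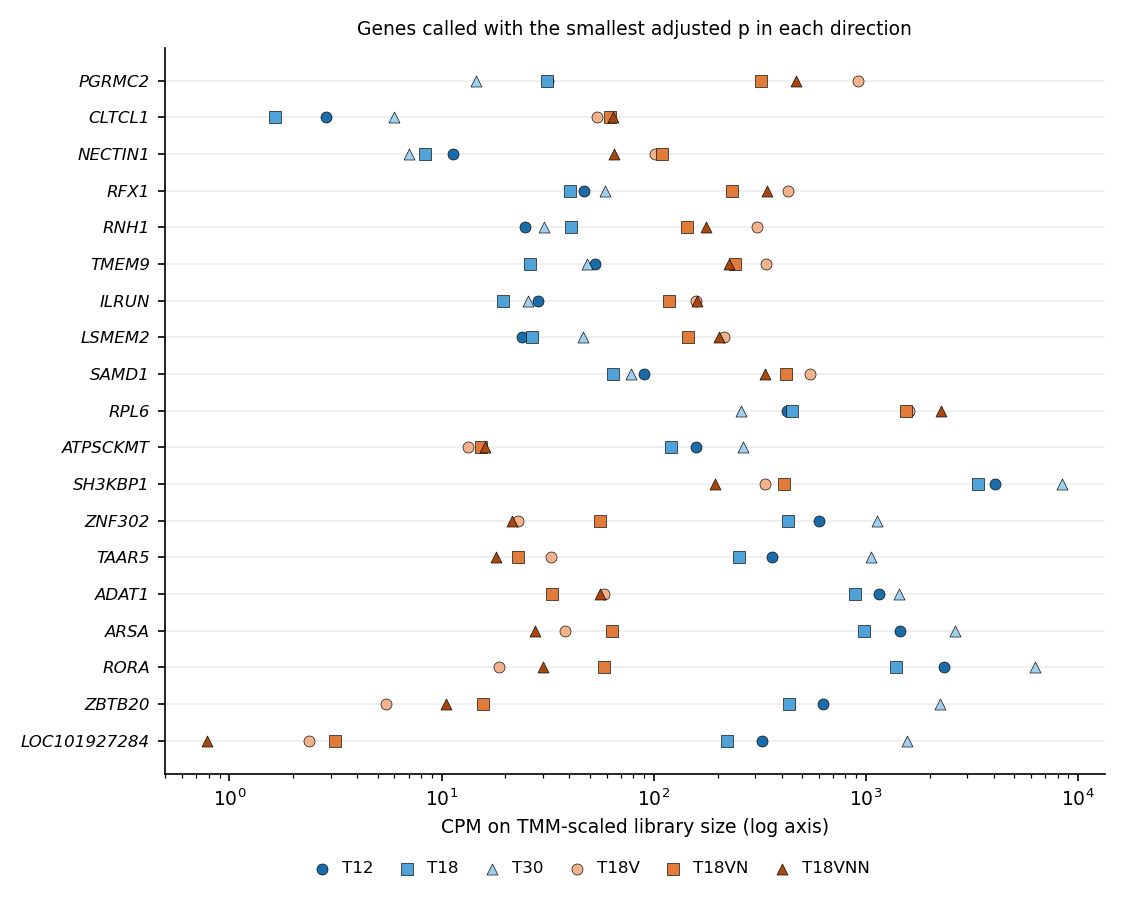
CPM of each library (log axis, scaled with TMM factors; blue symbols unanchored, orange symbols anchored) for the genes with the smallest adjusted p in each direction, ordered by log2 fold change. The choice of genes required that the classes not overlap, and T30 is the highest library of each lower gene shown.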

How the data were processed

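The members, gene lists and tests were chosen with earlier results of these data known. Reads per RefSeq transcript entry were deposited by the authors as a count beside an FPM signal and an FPKM, and only the deposited count was tested. FPM is the deposited count scaled to a library total, and FPKM further divides it by transcript size, per the file headers. The submitters' processing notes name FastQC 0.11.8, cutadapt 2.10, Trimmomatic 0.39, HISAT2 2.2.1 and SAMtools, and the build hg19; use of strand and treatment of reads with several matches are not given in the sources used here. Gene coverage along the transcript body and poly(T) lengths, also deposited as signal and counts, were not used here.

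Of 61177 entries 60133 (98.3%) matched a gene symbol, and the entry with most reads was kept per gene, giving 26625 genes, of which 8243 overlap another gene. Overlap of genes here means overlap of their whole genomic spans, introns included, on either strand. The 10887 genes that passed edgeR's filterByExpr were fitted with edgeR 4.0.16 (R 4.3.3) after TMM scaling, with no covariates and Benjamini-Hochberg adjustment at 0.05, and the fit was checked on simulated data. edgeR's common biological coefficient of variation, which measures the spread between primers, was 0.484. Standard errors are the log2 fold change over the square root of F. Reads on genes were 3265469, 5200859 and 2215960 in T12, T18 and T30 and 2811096, 4481212 and 3596542 in T18V, T18VN and T18VNN, so that 3 reads were 0.577 to 1.35 CPM. No molecular identifiers are recorded, so this floor covers counting error only. Depth, library totals and the percentage of reads on genes differ between libraries. Batch and primer class cannot be told apart because the labels give no batch.

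Runs of A were read from GENCODE release 29 transcripts (GRCh38) matched by symbol and by length within 10%, for 8989 tested genes (82.6%). Gene coordinates are those of the deposited files (hg19), and the coordinates of the printed sites are GRCh38. Lists and bins were described by counts and medians, with no test of a list. For shares of reads the test was an exact permutation of the 6 libraries, two-sided, with a smallest p of 0.1. Genes were named by rule: in each direction the 10 called genes with the smallest adjusted p, no overlap of the classes and at least 20 CPM in the higher class; up to 4 called members of a list; and the called gene with the smallest adjusted p of each length and run bin. Of these, 2 genes are not reported here, nor is 1 of the sites. Alternatives were DESeq2 1.42.0, RLE scaling, other filters on low counts, thinned reads, the longest entry per gene, no overlapping genes and leaving out each library.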

Additional observations from a re-analysis of the deposited data

How the results depend on the processing

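No paired analysis was possible because each primer had 1 library with gene counts, and the replicate numbers in the labels are shared only between HEK293T and A549 libraries of the T12 primer. Of the 55 named and called genes, 25 kept direction and threshold in every alternative run for them. DESeq2 called 608 genes (279 higher, 329 lower, with 3190 adjusted p-values not given) and shared 145 of the 147, and no filter on low counts gave 556 (283 and 273), where 16407 genes were tested. Lower genes with runs of 15 or more A were 84 with DESeq2, 75 without the filter and 15 without overlapping genes. RLE scaling gave 78 higher and 74 lower and moved the median of all genes to -0.04. Leaving out a library gave 46 to 107 genes, 19 to 53 higher and 27 to 66 lower, and 9 to 27 lower genes with runs of 15 or more. Relative to all genes, the median of genes with runs of 15 or more stayed between -0.60 and -0.35 in every alternative run for it.

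Without the filter the medians were -0.081 for long noncoding genes (main -0.183), 0.132 for pseudogenes (-0.047) and 0.133 for transcripts of 500 to 1000 bases (0.068). Small noncoding genes that overlap no other gene had 1.915 (0.652), and transcripts of 15000 bases or more at a mean of 10 CPM or more had -0.067 (0.122). Leaving out a library gave -0.017 to 0.117 for transcripts of 500 to 1000 bases and -0.081 to 0.253 for those of 15000 or more. Differences in shares of reads that changed sign were small: with the top gene of each library left out, protein-coding genes gave 0.0201 points and pseudogenes -0.00231, and with the longest entry pseudogenes gave -0.000903. Over the left-out libraries these differences ran from -0.118 to 1.10 points for transcripts under 1000 bases, -0.310 to 0.202 for protein-coding genes, -0.0356 to 0.0763 for pseudogenes, -0.00372 to 0.785 for ribosomal protein genes and -0.0161 to 0.0328 for histone genes. With the longest entry the log2 fold changes of KCNH2 and RORA reversed to 1.783 and 1.416. The cause was not tested in any of these cases.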

Other observations

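Higher genes were unevenly spread over chromosomes, a count made after the values were seen. Chromosome 22 held 11 of the 85 genes that rose, among 287 tested there (3.83%, against 0.781% of all genes tested), and 1 that fell. CLTCL1, AP1B1, EIF3D and KCNJ4 are among the 11. The median log2 fold change of all genes tested on the chromosome was -0.09. Chromosome 17 held 11 higher genes among 687 tested (1.60%). Chromosome 5 held none among 519, with 5 lower (0.963%, against 0.569% of all genes tested).

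The medians also moved with base composition. The median log2 fold change was 0.21 in 99 genes with GC under 35%, 0.09 in 1837 genes with GC of 40 to 45% and -0.16 in 1359 genes with GC of 60% or more. The called genes did not follow these medians: of 77 higher genes with a GC value, 45 had GC of 50 to 60%, where the medians were 0.00 and -0.06. The median GC was 55.1% in higher genes, 46.6% in lower genes and 49.3% in all genes tested.

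Genes were also sorted by the most A in any 18 bases, whatever their longest run. The median log2 fold change was -0.16 with 9 A (517 genes, 41.8% above 0) and 0.21 with 14 A (1175 genes, 62.2% above 0). It was 0.04 with 15 A (713 genes), -0.18 with 16 A (492 genes) and -0.36 with 17 A (301 genes). This was seen in the data first and was not tested.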
